A study of Sus scrofa with 12 samples.

Results

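The comparison described here set pig parthenogenetic embryonic stem cell (ESC) line 7, called ESC7, against parthenogenetic ESC line 3, called ESC3. It used the 3 libraries of each line, 6 of the 12 RNA-seq libraries in the series. A parthenogenetic line comes from an egg that was activated without sperm. The other libraries were 3 of ESC11, a line derived from a fertilised embryo (in vitro fertilisation, IVF), and 3 of fibroblasts from a fetus at day 30, taken at passage 6. ESC11 and the fibroblasts were used only to say which of the parthenogenetic lines stood apart. All 3 ESC lines were grown on feeder cells in the same medium, which held 5 ng/mL of activin A (ActA), 20 ng/mL of FGF2, 2.5 µM of IWR-1 and 1.5 µM of CH, and with Y-27632 around each subculture. ESCs positive for the surface antigen SSEA1 were sorted on magnetic columns before RNA extraction, and their polyA RNA was sequenced from both ends in reads of 100 bp. Each group is a single line or a single kind of culture, so a difference is one between these lines. Breed, passage and sex of the ESC lines are not given in the sources used here.

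The authors deposited FPKM values, which are fragment numbers corrected for transcript length and for the mapped total of a library. Of 30012 rows in the table, 20920 matched or extended an annotated gene, and 12384 of those reached 1 FPKM in 3 or more of the 6 libraries. These 12384 rows, with 11061 different symbols, were tested. Just inside that limit, TFPI2 had 1.17, 1.20 and 1.06 FPKM in ESC7 and 0.502, 0.622 and 1.04 in ESC3. Just outside it, NRCAM had 0.386, 0.531 and 0.771 in ESC7 and 0.757, 1.14 and 1.43 in ESC3. A gene was called where limma gave an adjusted p (Benjamini-Hochberg) under 0.05 together with a difference of at least 1 in log2(FPKM + 1), which is 2-fold for well expressed genes and more for weak ones.

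Cells with only maternal chromosomes are best known for their imprinted genes. These genes carry a mark set in the egg or the sperm, and many of them are transcribed from only the unmarked parental copy. Genes read only from the paternal copy are therefore usually silent in parthenogenetic cells. Pig ESCs of this kind are grown with FGF and activin, which hold cells in an epiblast-like state. In that state NODAL and activin signalling feeds back on itself through the inhibitor LEFTY2.

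The label of pluripotent stem cells fitted both lines. POU5F1, the core pluripotency factor, had 794, 752 and 723 FPKM in ESC7 and 723, 749 and 745 in ESC3, and SOX2 had means of 202 and 223. NANOG, another core factor, was at 80.4 ± 2.98 FPKM in ESC7 and 107 ± 2.85 in ESC3 (SD, n = 3), a log2 difference of -0.41 that was not called. The 5 pluripotency markers in the table summed to 1897 to 1904 FPKM in ESC7, 2025 to 2065 in ESC3 and at most 1.74 in fibroblasts. The 6 fibroblast markers in the table, of which 4 passed the filter and 0 were called, summed to 69.8 to 80.9 FPKM in ESC7, 80.1 to 105 in ESC3 and 15849 to 16017 in fibroblasts. Of 9 markers of trophectoderm, neural cells, amnion, blood and endothelium, 8 were under the filter, each with means under 1 FPKM in both lines, and could not be called. The other one, the amnion marker GABRP, had 14.3 ± 1.09 in ESC7 and 18.9 ± 0.873 in ESC3 and was not called. Of 3 hypoblast markers GATA6 was called. The sum of the 3, 2.53 to 2.77 in ESC7 and 0.558 to 1.36 in ESC3, was nearly all GATA6. The others were under the filter, GATA4 with means of 0.0499 in ESC7 and 0.0807 in ESC3 and SOX17 with 0.0142 and 0.0278. Across the tested rows the libraries of a line correlated at 0.989 to 0.992 and those of different lines at 0.967 to 0.970. These r values run across genes, and genes are no replicates.

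ESC7 and ESC3 differed at 314 of the 12384 tested rows, 2.54% of them. In ESC7, 224 rows were higher (1.81%) and 90 were lower (0.727%). Higher rows made up 71.3% of the calls. After quantile normalization, which gives all libraries the same distribution, 186 were higher and 127 lower, a share of 59.4% higher. Most differences were small: the median absolute log2 difference of all tested rows was 0.18 and the 90th percentile 0.58. An adjusted p under 0.05 at any size of difference was reached by 5397 rows, so it was the size of the difference that decided most calls. At the limit, FGF2 at 1.01 and CHRD at 1.02 were called, while ANXA5 at 0.99 and DLL1 at -0.99 were not. The 3 values of a line did not overlap those of the other line in any of the 314 rows. These rows were chosen by p and size, and uncalled genes such as NANOG and DNMT3B did not overlap either. The absence of overlap therefore adds no support to the calls. Of the 314 rows, 97 passed the filter through 1 line alone and had to differ. In 66 of them all ESC3 libraries were under 1 FPKM, and in 31 all ESC7 libraries were. In bulk RNA, fewer cells that express a gene and less RNA in each cell cannot be told apart.

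**Figure D1:**
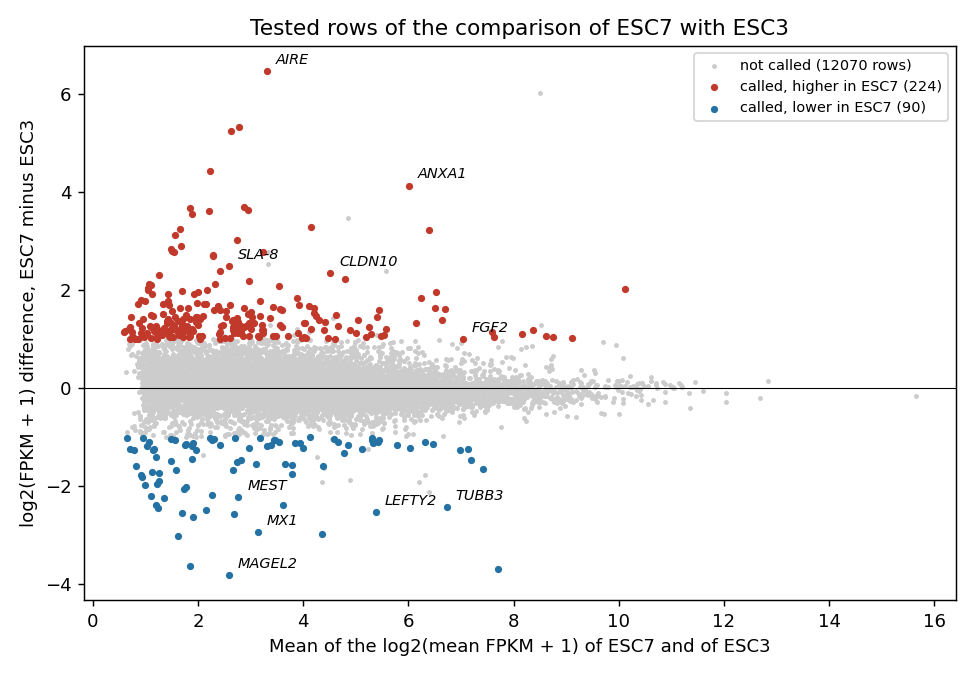
Each point is 1 of the 12384 tested rows. The x axis gives the average of both lines' log2(mean FPKM + 1) and the y axis the difference in log2(FPKM + 1), ESC7 minus ESC3. Red points are the 224 called rows higher in ESC7 and blue points the 90 lower ones, and 10 genes named in the text are labelled. Most rows lie close to 0, while ANXA1 at 4.14 and TUBB3 at -2.43 lie far from 0 at a high mean level.

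The IVF line placed these differences. For 87 of the 314 called rows only ESC7 was 1 or more on the log2 scale from the ESC11 mean, and for 64 only ESC3 was. For 7 rows both lines were, with ESC11 between them, and for 5 both were on the same side. For the other 151 rows ESC11 lay between the lines and less than 1 from each. ESC11 was nearer to ESC3 at 191 rows and nearer to ESC7 at 123. These counts are descriptions, with no test.

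**Figure D2:**
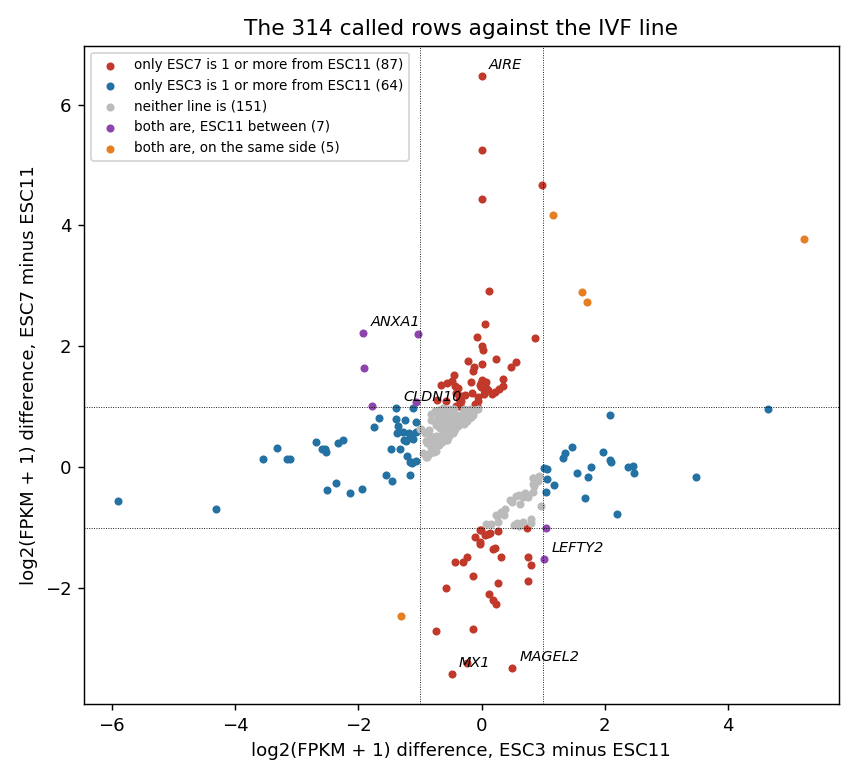
Each point is 1 of the 314 called rows, with the ESC3 minus ESC11 difference on the x axis and the ESC7 minus ESC11 difference on the y axis, both in log2(FPKM + 1), and dotted lines at -1 and 1. MAGEL2 and MX1 lie far below 0 on the y axis and near 0 on the x axis, since ESC7 alone was low, while ANXA1 lies in the upper left, with ESC11 between the lines.

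Genes known for expression from the paternal copy fell into separate sets. MAGEL2, MKRN3, MEST and PEG3 were lower in ESC7 than in ESC3 and ESC11, while SNRPN, NAP1L5, PLAGL1, SGCE and NNAT were far lower in both parthenogenetic lines than in ESC11. Of 34 listed paternally expressed genes, 26 were in the annotated rows and 13 passed the filter. Of those 13, 4 were lower in ESC7 and 0 were higher, against 0.727% and 1.81% of all rows. The median log2 difference of the 13 was -0.09, against 0.01 over all tested rows. MAGEL2, MKRN3 and PEG3 passed the filter through ESC3 alone, so their count supports nothing by itself and their levels are given one by one.

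MAGEL2 is a regulator of ubiquitin ligases from the imprinted region linked to Prader-Willi syndrome in humans (chromosome 1, 158314803 to 158317091, Sscrofa10.2). It had 0.463, 0.742 and 0.583 FPKM in ESC7, 19.3, 22.5 and 22.3 in ESC3, and 15.4, 15.6 and 13.6 in ESC11. All ESC7 libraries were below all libraries of the other groups, fibroblasts at 6.70 included. The ESC3 mean was 35.9-fold that of ESC7, with a log2 difference of -3.81 ± 0.09 (SE) and an adjusted p of 1.96e-06. MKRN3, a ring-finger protein encoded next to MAGEL2 (158354954 to 158363850), had 0, 0.00790 and 0.0388 FPKM in ESC7 and 2.72, 2.04 and 2.92 in ESC3, with an adjusted p of 6.77e-05. ESC11 had 1.85 ± 0.156 (SD, n = 3), with its highest library just below the lowest of ESC3. These were 2 of only 3 tested rows within 1 Mb of the pair. The third, UBE3A, is a ubiquitin ligase known for maternal expression in neurons, and it had 45.2 ± 1.27 in ESC7 and 42.0 ± 0.783 in ESC3, which was not called.

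MEST, an enzyme-like membrane protein (chromosome 18, 19327494 to 19347714), had 2.14, 2.07 and 2.26 FPKM in ESC7, 13.7, 13.3 and 13.9 in ESC3 and 13.04, 12.6 and 11.8 in ESC11. ESC3 and ESC11 had means of 13.7 and 12.5 FPKM, and ESC7 was 6.33-fold below ESC3 with an adjusted p of 2.44e-06. PEG3, a zinc-finger protein (chromosome 6, 56621615 to 56644075), had 0.416, 0.398 and 0.403 FPKM in ESC7, 2.51, 2.61 and 3.14 in ESC3 and 4.73, 4.46 and 4.55 in ESC11. Its level in ESC3 lay between the other lines, and its difference from ESC7 had an adjusted p of 7.22e-05. A second row named PEG3, next to it, was not tested and had means of 0.299 in ESC7, 2.28 in ESC3 and 4.51 in ESC11, the same order. Under each scaling tried, MAGEL2, MKRN3, MEST and PEG3 were called lower in ESC7.

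The other paternally expressed genes did not part the lines in this way. SNRPN, a splicing protein gene from the same human region as MAGEL2, had means of 0.126 FPKM in ESC7 and 0.143 in ESC3, against 154 ± 4.95 in ESC11 (SD, n = 3). NAP1L5, a nucleosome assembly protein, had 0.0555 and 0, against 6.01 in ESC11. PLAGL1, a zinc-finger regulator, had 0.446 and 0.426, against 7.73. SGCE, a muscle membrane protein, had 0.0318 and 0, against 8.83. PEG10, a retrotransposon-derived gene, lay on an unannotated row with 0.313 and 0.245, against 81.5. NNAT, a brain membrane protein, passed the filter with 1.59 ± 0.128 and 1.77 ± 0.285, against 11.1, and was not called between the lines. ZDBF2 and INPP5F had means of 21.4 against 12.8 and 19.9 against 15.1, and their log2 differences of 0.70 and 0.38 were under the limit.

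Genes known for expression from the maternal copy showed no called difference. Of 29 listed, 19 were in the annotated rows and 10 were tested. Of those 10, 0 were called in either direction, and the median was 0.19, against 0.01 over all tested rows. Over all rows 2.54% were called, so 0 of 10 says little about these genes. IGF2R, the receptor that clears IGF2, had 139 ± 14.7 FPKM in ESC7 and 106 ± 2.98 in ESC3. GNAS, a G-protein subunit, had 898 ± 39.1 and 1035 ± 52.6. Their log2 differences were 0.38 and -0.20. PHLDA2, a growth regulator of placenta, failed the filter and varied from 0.286 to 4.93 within ESC3.

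**Figure D3:**
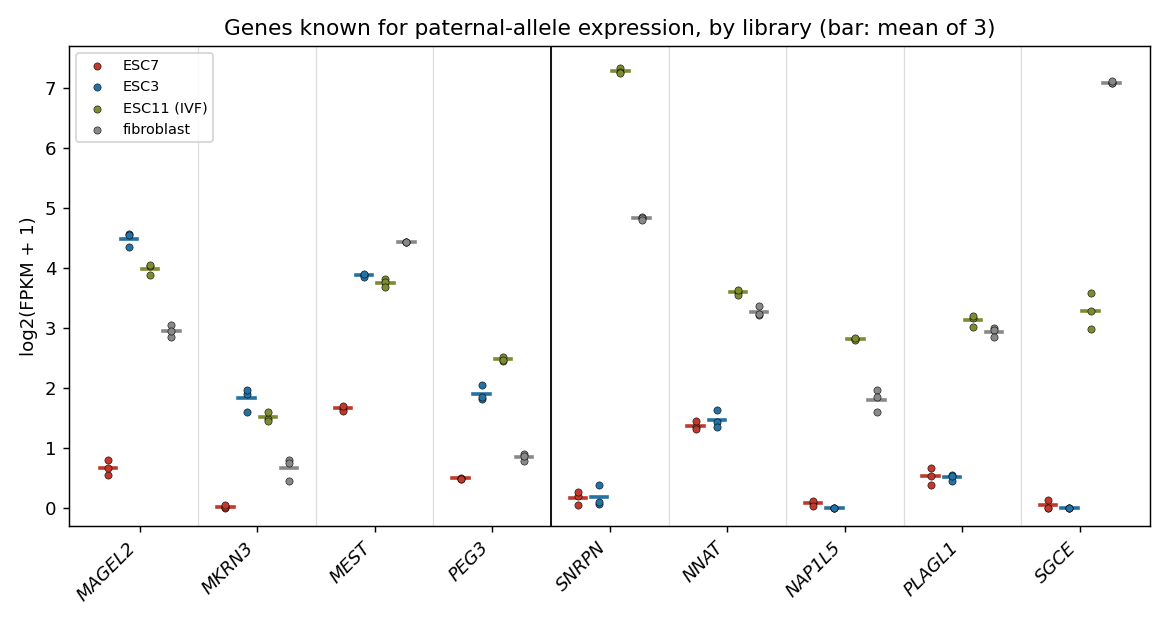
Points are libraries and bars are means of 3, in log2(FPKM + 1), for ESC7 (red), ESC3 (blue), ESC11 (green) and fibroblasts (grey). Left of the black line, MAGEL2, MKRN3, MEST and PEG3 are low in ESC7 alone among the ESC lines. Right of it, SNRPN, NNAT, NAP1L5, PLAGL1 and SGCE are low in both parthenogenetic lines.

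The NODAL and activin list also held TGF-beta genes. On it the lines differed at the inhibitor LEFTY2 and the TGF-beta receptor TGFBR2. LEFTY2, a secreted inhibitor that NODAL itself induces (chromosome 10, 15935636 to 15974936), had 15.5, 17.2 and 16.3 FPKM in ESC7, 101, 111 and 87.1 in ESC3, and 52.4, 59.0 and 37.1 in ESC11. All 3 lines were apart, with ESC11 in the middle. ESC3 was 6.11-fold above ESC7, with a log2 difference of -2.53 ± 0.09 (SE) and an adjusted p of 6.39e-06. TGFBR2, the type II receptor for TGF-beta (chromosome 13, 18743778 to 18747725), had 53.5, 55.8 and 46.2 in ESC7 and 15.4, 18.5 and 24.1 in ESC3, with an adjusted p of 0.000597. ESC11, at 24.4, was near ESC3, and fibroblasts were at 672.

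No other tested member of that list was called. Of 17 tested members 1 was higher and 1 lower, against 1.81% and 0.727% of all rows, and the median log2 difference was -0.09. The ligand NODAL lay on an unannotated row with means of 0.463 FPKM in ESC7, 1.31 in ESC3 and 0.716 in ESC11. Its co-receptor TDGF1 had 25.2 ± 2.39 and 24.1 ± 0.629, and the transcription factor FOXH1, which carries the signal with SMAD2, had 168 ± 7.68 and 178 ± 2.90. The inhibitor SMAD7 had 5.36 ± 0.593 in ESC7 and 8.68 ± 0.617 in ESC3, a log2 difference of -0.61. SKIL and TGIF1, repressors of SMAD activity, had differences of -0.37 and -0.44, and the receptor ACVR2B one of -0.39. The levels of SMAD7, SKIL, TGIF1 and ACVR2B were all under the limit for a call.

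FGF signalling genes were called at FGF2 and DUSP5, both higher in ESC7. FGF2, the growth factor that the medium also supplies as protein, had 181, 195 and 177 FPKM in ESC7 and 79.2, 108 and 88.9 in ESC3. ESC11 spread from 103 to 181 and overlapped ESC7. The FGF2 difference of 1.01 ended under the limit without ESC3 replicate 1 (0.91), ESC3 replicate 3 (0.99) or ESC7 replicate 2 (0.96), and after median-ratio scaling (0.99). DUSP5, a phosphatase induced by ERK, had 63.8, 68.4 and 68.5 in ESC7 and 29.9, 32.0 and 31.3 in ESC3, with an adjusted p of 1.26e-05. Of 23 tested genes of the pathway 2 were higher, against 1.81% of all rows, and 0 lower, with a median of 0.29. Differences were positive for 16 of the 23 and not for the rest. Under the limit were the feedback genes SPRY4 at 21.6 against 13.03 FPKM and DUSP6 at 86.1 against 61.0. The ligand FGF4, at 6.84 against 3.05, was also under it.

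Other signalling lists had 1 call each, against 2.54% called over all rows. In the WNT list, 22 genes were tested and NKD1, a feedback inhibitor, was lower in ESC7, with 197, 49.1 and 66.4 FPKM against 297, 333 and 207. The NKD1 call (adjusted p 0.0299) was lost without ESC3 replicate 1 (adjusted p 0.0783), ESC3 replicate 2 (0.0872), ESC7 replicate 2 (0.0782) or ESC7 replicate 3 (0.0898). Of 17 BMP genes CHRD, a secreted BMP antagonist, was higher, at 22.4 ± 0.358 against 10.6 ± 1.53 FPKM. The CHRD difference fell to 0.99 after quantile normalization and to 0.91 without ESC3 replicate 1, both under the limit. Of 15 genes of LIF and STAT3 signalling IL6, a cytokine, was higher, at 3.56 ± 0.948 against 0.881 ± 0.174. Of 11 retinoid genes CYP26A1, which breaks down retinoic acid, was lower, at 0.430 ± 0.141 against 2.08 ± 0.322, and it passed the filter through ESC3 alone.

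Genes of neurons and of the primed epiblast were called in 1 direction only, lower in ESC7. Of 18 tested neural genes 4 were lower, against 0.727% of all rows, and 0 higher, with a median of -0.25. Of those 4, STMN2 and LHX5 passed the filter through ESC3 alone and had to differ. After quantile normalization DLL1 and SYT1 were called lower too, and after median-ratio scaling DLL1 was. TUBB3, the neuronal class III beta tubulin (chromosome 6, 259395 to 268749), had 41.1, 44.4 and 48.5 FPKM in ESC7, 262, 245 and 227 in ESC3 and 141, 143 and 133 in ESC11. ESC7 was below all other groups, fibroblasts at 116 included. ESC3 was 5.47-fold above ESC7, with a log2 difference of -2.43 ± 0.07 (SE) and an adjusted p of 3.47e-06. ELAVL3, an RNA-binding protein of neurons, had 6.97, 6.01 and 6.58 in ESC7 and 24.2, 24.0 and 24.6 in ESC3, with ESC11 between them at 14.1. STMN2, a microtubule regulator of growing axons, had a mean of 0.299 in ESC7 and 3.35 in ESC3. LHX5, a forebrain transcription factor, had 0.111 and 1.69, and here ESC11 at 0.280 was near ESC7.

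Defining markers of neural cells were at or near 0 in both lines. PAX6, a factor of neural progenitors, was listed at 0 in all 6 libraries, and DCX, a microtubule protein of young neurons, had 0.295 ± 0.108 FPKM in ESC7 and 0.386 ± 0.163 in ESC3. Among neural genes under the limit, DLL1, a NOTCH ligand, had 1.44 against 3.83 and SYT1, a synaptic vesicle protein, 0.845 against 2.46. MAPT, the tau gene, had 3.09 against 1.43, a difference of 0.76 that was not called.

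Of 17 tested primed epiblast genes 2 were lower, against 0.727% of all rows, 0 were higher, and the median was -0.39. POU3F1, a further transcription factor on that list, was also called lower after quantile normalization. HMGA2, a chromatin protein, had 7.35, 7.06 and 4.67 FPKM in ESC7 and 15.3, 21.4 and 24.5 in ESC3, with an adjusted p of 0.00124. ESC11, at 17.5, lay with ESC3. CDH2, N-cadherin, had 34.4, 18.2 and 36.3 in ESC7 and 53.1, 70.0 and 58.6 in ESC3. The CDH2 difference of -1.06 ended above -1 without ESC3 replicate 2 (-0.95) or ESC7 replicate 2 (-0.75). OTX2, a transcription factor of the primed epiblast, had 38.4 ± 2.14 in ESC7, 72.2 ± 1.72 in ESC3 and 61.2 ± 1.73 in ESC11, a difference of -0.89 under the limit. POU3F1 had 1.80 against 4.29 and SOX11 22.7 against 38.3, also under it. Of 17 core pluripotency genes and 8 naive pluripotency genes 0 were called, against 2.54% of all rows, with medians of -0.17 and -0.07. PRDM14 and LIN28B had the largest negative differences of the core genes, at -0.77 and -0.53.

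**Figure D4:**
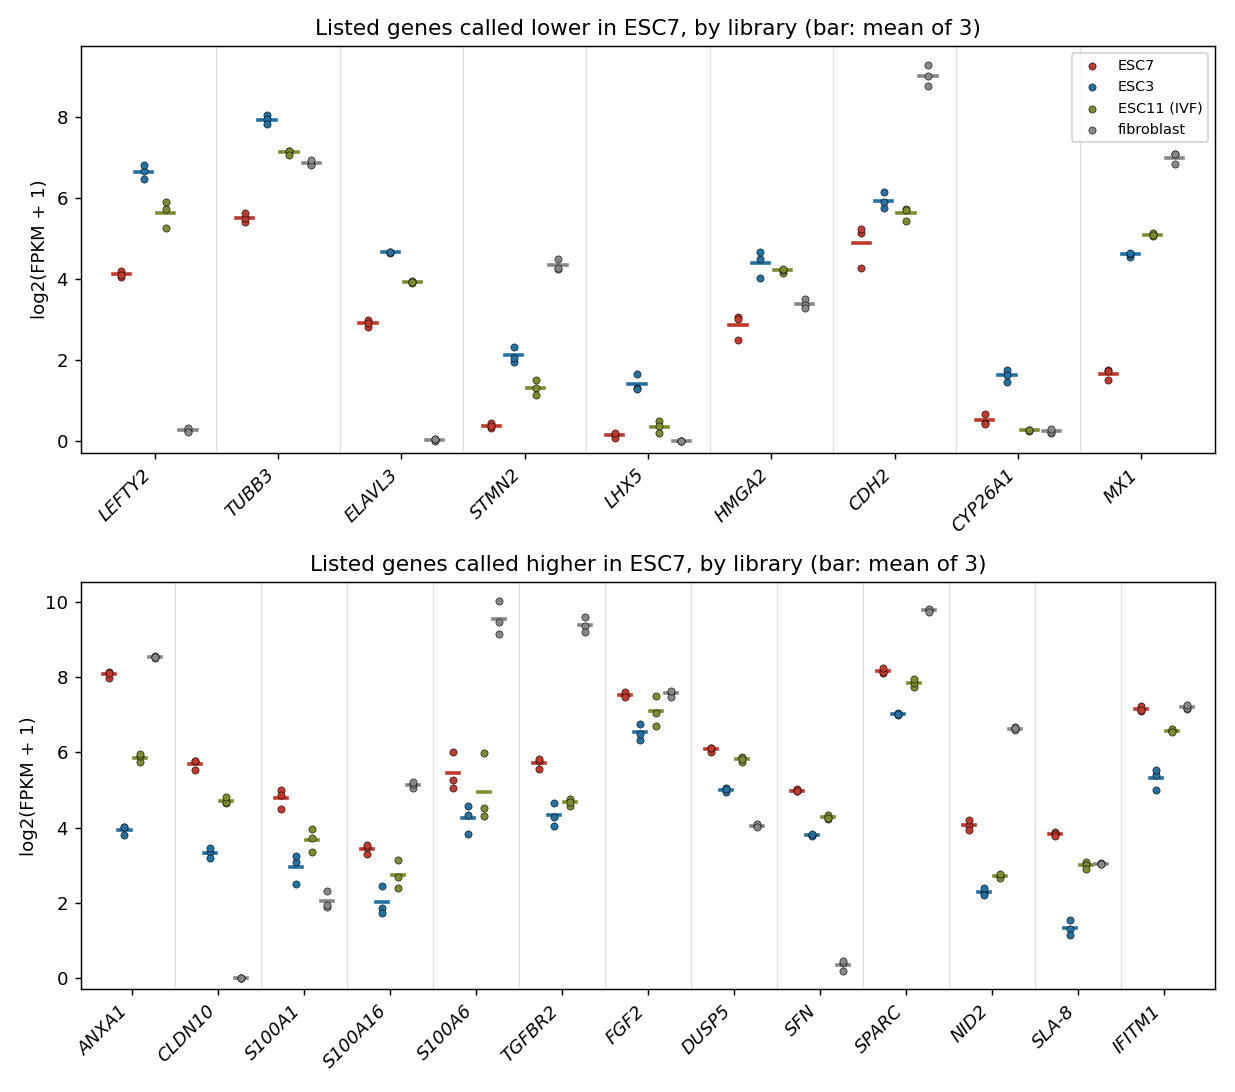
Points are libraries and bars are means of 3, in log2(FPKM + 1), for 9 listed genes called lower in ESC7 (top) and 13 called higher (bottom), with ESC7 in red, ESC3 in blue, ESC11 in green and fibroblasts in grey. Red and blue points do not overlap in any of these genes. ESC11 lies between the lines for LEFTY2, TUBB3, ANXA1 and CLDN10.

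Annexins and S100 proteins, which bind calcium and membranes, were called only as higher in ESC7. Of 16 tested genes 4 were higher, against 1.81% of all rows, and 0 lower, with a median of 0.60, against 0.01 over all rows. ANXA1, an annexin known for limiting inflammation (chromosome 1, 252989614 to 253007803), had 281, 252 and 275 FPKM in ESC7, 13.01, 15.1 and 15.2 in ESC3, and 52.1, 58.6 and 60.8 in ESC11. The 3 lines did not overlap, and ESC7 came closest to fibroblasts, at 369 ± 8.03 (SD, n = 3). ESC7 was 18.7-fold above ESC3, with a log2 difference of 4.14 ± 0.07 (SE) and an adjusted p of 6.22e-07. S100A1 had 26.9 ± 4.85 against 6.89 ± 1.99 FPKM and S100A16 had 9.87 ± 0.954 against 3.12 ± 1.14. S100A6 had 63.9, 37.3 and 32.2 against 13.3, 22.8 and 19.2. The S100A6 difference of 1.20 fell under the limit without ESC7 replicate 1 (0.91) or ESC3 replicate 1 (0.99).

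Several other annexins differed by less than the limit. ANXA5 had 14.05 ± 0.867 FPKM in ESC7 and 6.605 ± 0.523 in ESC3, ANXA4 21.1 ± 0.332 and 13.99 ± 0.358, and ANXA6 59.5 ± 1.99 and 42.3 ± 0.897. ANXA2, the most abundant of them in these lines, had 280 ± 1.79 and 245 ± 6.73, and ANXA11 had 54.7 and 55.4. S100A4 had 2.22, 1.25 and 7.37 in ESC7 and overlapped ESC3 (adjusted p 0.116). ANXA1, ANXA5 and S100A4 had 369, 589 and 1219 FPKM in fibroblasts. Of the fibroblast markers, VIM had means of 55.3 FPKM in ESC7 and 69.2 in ESC3, COL1A1 14.8 and 16.6, and DCN, under the filter, 0.523 and 0.0787. Their part in the annexin and S100 differences was not tested.

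CLDN10, a claudin that forms ion channels in tight junctions (chromosome 11, 71983268 to 72006790), had 53.7, 44.8 and 53.3 FPKM in ESC7, 9.22, 8.09 and 9.95 in ESC3 and 24.1, 24.5 and 27.1 in ESC11. All 3 lines were apart, and fibroblasts were listed at 0. ESC7 was 5.57-fold above ESC3, with a log2 difference of 2.35 ± 0.09 (SE) and an adjusted p of 9.61e-06. It was the 1 called gene of 34 tested claudins and junction genes, whose median was 0.24, a share close to the 2.54% of all rows. CDH1, E-cadherin, had 541 against 340 FPKM and CLDN6, the most abundant claudin here, 2271 against 2999.8, both under the limit. Of 4 keratins 0 were called, against 2.54% of all rows, with KRT19 at 280 against 155 and KRT18 at 517 against 341.

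Some adhesion and matrix genes were also called as higher. ITGA3, an integrin subunit that binds laminin, had 46.1 ± 4.16 FPKM in ESC7 and 20.9 ± 3.84 in ESC3. LAMB3, a laminin chain of epithelia (written Lamb3 in the table), had 1.42 ± 0.0854 against 0.1802 ± 0.0446. Lamb3 passed the filter through ESC7 alone and had to differ, and Lamb3 fell to a difference of 0.80 after quantile normalization. NID2, a basement membrane protein, had 15.8 ± 1.58 against 3.87 ± 0.310, with ESC11 at 5.57. SPARC, a matrix glycoprotein, had 286 ± 15.8 against 128 ± 2.81. Of 15 tested hypoblast and endoderm genes NID2, SPARC and GATA6 were higher, against 1.81% of all rows, and 0 lower. The median of the 15 was 0.24. After quantile normalization NID2 and SPARC were higher and LAMA1, a laminin chain with a difference of -0.98 before it, was lower (-1.08). GATA6, the hypoblast transcription factor, had 2.53, 2.66 and 2.53 against 0.423, 1.23 and 0.519. The GATA6 difference of 1.08 fell to 0.90 after quantile normalization and 0.96 without ESC3 replicate 1. SPARC and NID2 were at 873 and 97.9 in fibroblasts. COL5A2, a fibrillar collagen chain, had 2.93 against 0.916, and its difference of 1.04 fell to 0.89 after quantile normalization and 0.97 without ESC3 replicate 2. Of 21 fibroblast and matrix genes SPARC and COL5A2 were higher, against 1.81% of all rows, and 0 lower, with a median of 0.06. After quantile normalization SPARC was higher and ZEB2, a repressor of E-cadherin with a difference of -0.87 before it, was lower (-1.10).

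Antiviral and MHC genes went both ways. MX1, an interferon-induced GTPase (chromosome 13, 214988891 to 215014757), had 1.83, 2.39 and 2.31 FPKM in ESC7, 22.2, 23.7 and 24.1 in ESC3 and 32.2, 33.9 and 32.9 in ESC11. ESC7 alone was low, 10.7-fold below ESC3, with a log2 difference of -2.94 ± 0.08 (SE) and an adjusted p of 2.57e-06. MX2 and IRF7 of the same list were not called, at 1.13 against 0.730 and 9.73 against 9.08. Higher in ESC7 were SLA-8, an MHC class I gene, at 13.2 ± 0.541 against 1.54 ± 0.352, IFITM1, a membrane protein that restricts viruses, at 142 ± 7.29 against 39.1 ± 7.48, and IFI44L at 2.00 ± 0.108 against 0.374 ± 0.111. IFI44L fell under the limit after quantile normalization, at 0.93. Of 18 tested genes 3 were higher and 1 lower, against 1.81% and 0.727% of all rows, with a median of 0.36. IFI44L passed the filter through ESC7 alone and had to differ. SLA-8 and IFITM1 have close copies, and another SLA-8 row had 2.93 against 2.80, so how fragments were shared among copies could change these values.

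Among 22 genes of cell cycle inhibitors and p53 targets 2 were higher, against 1.81% of all rows, and 0 lower. The median of the 22 was 0.31. SFN, the 14-3-3 sigma protein, had 30.2, 31.4 and 30.1 FPKM in ESC7 and 12.9, 12.8 and 13.1 in ESC3, with ESC11 at 18.4. TNFRSF10B, a death receptor, had 9.90 ± 2.13 against 3.501 ± 0.725. CDKN1A and MDM2, direct p53 targets, had 71.7 against 36.6 and 79.6 against 40.5, with differences of 0.95 and 0.96 just under the limit. Of 24 cell cycle genes and 33 oxidative phosphorylation genes 0 were called, against 2.54% of all rows, with medians of -0.18 and 0.02. FUT2, a fucosyltransferase, was the 1 called gene of 15 on a list of SSEA1 synthesis and stem cell surface markers. It had 4.76 ± 0.6004 against 1.04 ± 0.231, and over all rows 2.54% were called. Cells were sorted by SSEA1, and any link of the sort to FUT2 levels was not tested.

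**Figure D5:**
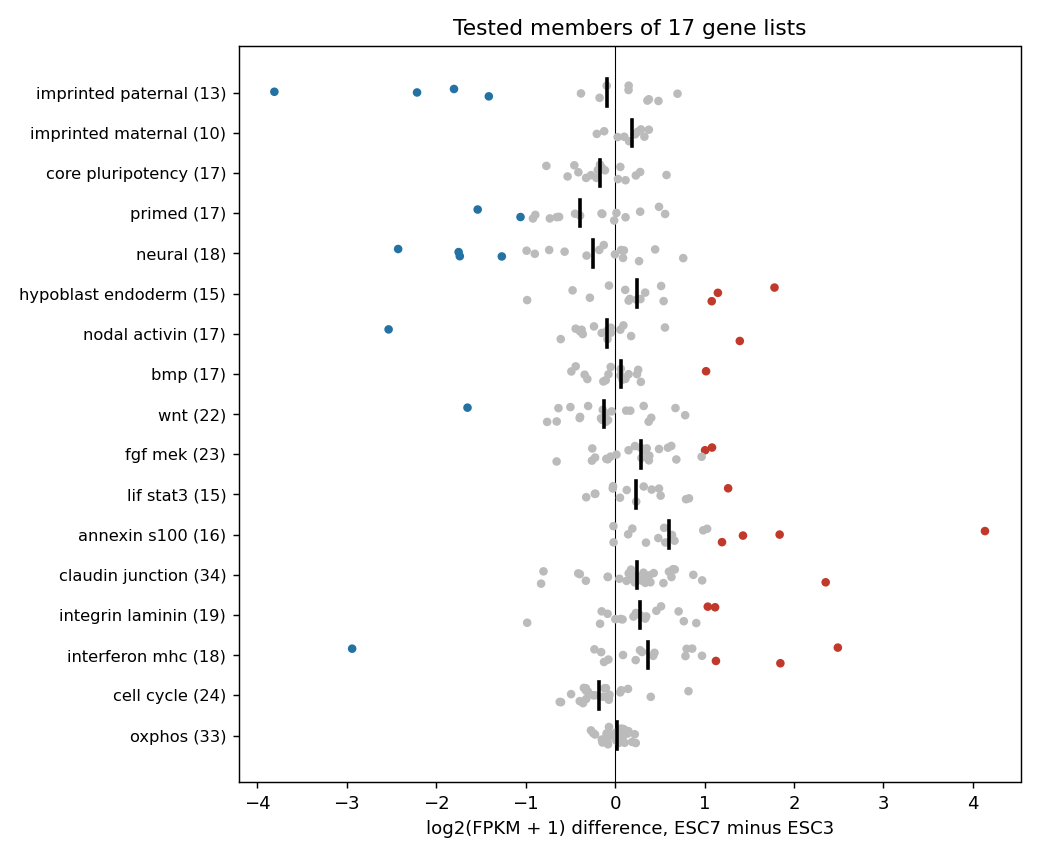
Each point is a tested member of 1 of 17 gene lists, placed by its log2(FPKM + 1) difference, ESC7 minus ESC3, with the number of tested members in brackets. Red and blue points are called genes, grey points are not called, and black bars are medians. The medians run from -0.39 for the primed list to 0.60 for annexins and S100 proteins.

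Some of the called genes were nearly absent from 1 line. AIRE, which drives the display of self proteins in the thymus (chromosome 13, 217028235 to 217038033), had 141, 49.2 and 100 FPKM in ESC7. ESC3 was listed at 0, 0.0341 and 0, and ESC11 at 0.0253, 0 and 0, so ESC7 alone had it among the ESC lines. Fibroblast libraries varied from 0.0297 to 27.1. The AIRE log2 difference was 6.47 ± 0.34 (SE) with an adjusted p of 3.21e-05. IGSF5, an adhesion protein, had 6.30, 6.55 and 6.70 in ESC7 against 0.0268, 0.118 and 0.105, and ESC11 was listed at 0. AIRE and IGSF5 passed the filter through ESC7 alone and had to differ. Both rows named MUCAP_PIG were higher in ESC7, at 24.6 against 1.07 and 17.9 against 1.34, and near 0 in ESC11.

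For other genes of this kind ESC3 was the line that lacked them. HENMT1, a methyltransferase of small germline RNAs, had 27.7, 24.8 and 25.6 FPKM in ESC7, 0.902, 1.22 and 1.41 in ESC3 and 20.7 ± 0.772 in ESC11. CYP2J2, a fatty acid epoxygenase, had 8.67 ± 0.532 in ESC7, 0.0190 in ESC3 and 7.77 in ESC11. ZNF782, a zinc-finger protein, had 11.8 ± 0.135 and 10.7 ± 0.242 in ESC7 and ESC11 and was listed at 0 in ESC3. STARD4, a cholesterol carrier, had 7.65, 0.163 and 5.97 in ESC7, ESC3 and ESC11, and CFI, a complement protease, had 6.65, 0.118 and 5.41. ATHL1 (PGGHG by its identifier), a glucosidase, had 6.53, 0.0494 and 5.12. CYP2J2, ZNF782, STARD4, CFI and ATHL1 passed the filter through ESC7 alone and had to differ.

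Among genes lower in ESC7, QTRT1, an enzyme that modifies transfer RNA, had 0, 0.210 and 0.0393 FPKM in ESC7, 7.14, 8.59 and 7.36 in ESC3 and 9.19 ± 0.571 in ESC11. HPDL, a mitochondrial oxygenase-like protein, had 4.69, 3.98 and 4.51 against 28.2, 26.8 and 26.3, with ESC11 at 23.8. Ccdc67 had 1.18, 0 and 0 against 6.17, 6.92 and 6.50, with ESC11 at 7.43. In all 3 genes ESC7 stood apart from both other lines. The row named TUBA1D (TUBA4A by its identifier), an alpha tubulin, had 0.696 ± 0.164 against 5.92 ± 1.35, and here ESC11 at 0.592 was with ESC7. QTRT1 and TUBA1D passed the filter through ESC3 alone and had to differ.

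Some wide differences rested on scattered libraries. GAS2 had 251, 146 and 215 FPKM in ESC7 and 31.3, 3.42 and 66.0 in ESC3 (adjusted p 0.0255), and the GAS2 call was lost without ESC7 replicate 1 (0.0711), 2 (0.05004) or 3 (0.0674). FAM57B had 19.2, 188 and 15.7 in ESC7 and 964, 309 and 445 in ESC3 (adjusted p 0.0171). The FAM57B call was lost without ESC3 replicate 1 (0.0555), ESC7 replicate 1 (0.0547) or ESC7 replicate 3 (0.0526), and 1 of the 3 ESC11 libraries was also high there, at 205. EPHB1, a receptor on a row of 1063 bp, had 0, 10.8 and 14.03 against 41.3, 58.0 and 33.6 (adjusted p 0.0419), and the EPHB1 call was lost without ESC3 replicate 1 (0.0907), 2 (0.110) or 3 (0.0766). FSTL5 had 22.5, 14.9 and 2.52 against 0.578, 0.624 and 0.795, and Nsun6 had 8.21, 20.6 and 6.12 against 35.1, 26.7 and 38.1. FSTL5 and Nsun6 stayed called without each library in turn, but neither was called at an adjusted p under 0.01. FSTL5 passed the filter through ESC7 alone and had to differ, and its ESC11 libraries had 1.30, 14.4 and 15.3. The Nsun6 difference fell to -0.84 with rows of the same symbol summed.

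Rows with the same symbol sometimes went opposite ways. PPP1R11, a phosphatase inhibitor, lies on rows of chromosome 7 at 24991268 to 24994355 and at 25150916 to 25154081. The first had 3.17 ± 0.246 FPKM in ESC7 and 0.0140 in ESC3, and the second 0.621 ± 0.146 in ESC7 and 5.74 ± 0.811 in ESC3. TMEM261 (DMAC1 by its identifier) had 7.73 against 0, while a row named Tmem261 beside it had 0.177 against 4.56. The row of 264 bp named MFSD5, a transporter, had 34.9, 33.0 and 43.8 in ESC7 and was listed at 0 in all other libraries, while the longer MFSD5 row had 16.4 against 13.7. Of called rows 29.6% had a symbol on more than 1 tested row, against 19.1% of all tested rows. Values on PPP1R11, TMEM261 and the short MFSD5 row are therefore uncertain as levels of a gene. The PPP1R11, TMEM261, Tmem261 and short MFSD5 rows each passed the filter through 1 line alone and had to differ.

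Called genes were spread over the genome, with few runs of neighbours. Chromosome medians lay between -0.04 (X) and 0.05 (8), and the share called between 1.10% (chromosome 3) and 3.86% (chromosome 9). On chromosome 9, between 4150666 and 5251631, lay 7 tested rows, and 6 of them were called, all higher in ESC7, against 1.81% of all rows. The stretch was bounded by called rows after their values were seen, so its count was fixed by that choice, and all 6 but TRIM6 passed the filter through ESC7 alone. They were CCKBR, a gut hormone receptor, TRIM6 (TRIM34 by its identifier), an antiviral ubiquitin ligase, and the olfactory receptor rows OR52H1, OR51Q1 (2 rows) and OR52D1. CCKBR had 5.42 ± 0.496 FPKM in ESC7, 0.633 ± 0.203 in ESC3 and 0.950 ± 0.567 in ESC11. TRIM6 had 12.8 ± 0.285, 3.70 ± 0.358 and 3.00 ± 0.293. The longest OR51Q1 row, of 172077 bp, had 18.8, 21.8 and 21.7 in ESC7 and at most 0.0128 in any library of ESC3 or ESC11. The other called OR51Q1 row lies within its span, so these rows may share fragments. OR52D1 had 1.94, 1.76 and 1.48, and was listed at 0 in the other lines. ESC7 was thus the line apart at all 6 rows. Another run, on chromosome 7, held both PPP1R11 rows and GABBR1, a GABA receptor subunit, at 52.0 ± 1.97 against 24.6 ± 1.48. The PPP1R11 row from 25150916 lies within the span of the GABBR1 row. The run lies in a stretch of MHC genes from 24603748 to 29356523, also bounded by called rows after their values were seen. There 8 of 59 tested rows were called, 6 higher and 2 lower, against 2.54% called over all rows.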

How the data were processed

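The 3 ESC7 and 3 ESC3 libraries were compared, with 3 ESC11 and 3 fibroblast libraries for reference. FPKM values were computed and deposited by the authors in 1 table. Per the submitters' processing notes, the build was Sscrofa10.2 and the tools included Cufflinks 2.1.1 and STAR 2.4.0b, with no step given for each. Strandedness and the handling of fragments that map to several places are not given in the sources used here, so overlapping and antisense genes cannot be told apart. Depth is unknown: FPKM were estimates that gave no whole reads, and no counting interval can be given. All 12 columns matched a labelled sample.

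Rows marked KNOWN or NEW_AS that reached 1 FPKM in 3 or more of the 6 libraries were fitted as log2(FPKM + 1) with limma 3.58.1 in R 4.3.3 (moderated variances with a trend, two-sided, Benjamini-Hochberg over 12384 rows). Calls needed an adjusted p under 0.05 and a log2 difference of at least 1. Fold changes on that scale understate low genes, and folds in the text are ratios of mean FPKM. Errors are SD between libraries or SE from limma. The labels do not say whether the 3 libraries came from separate cultures, so p-values reflect library-to-library spread alone, possibly technical.

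The genes and lists were chosen with earlier results of these data known. Named were 5 marker genes, up to 15 called genes per direction with the largest difference, a mean of at least 5 FPKM in the higher line and no overlap, up to 4 called genes per list of 37, the tested imprinted, NODAL and annexin genes, and genes in runs of at least 3 called neighbours. Genes not called are given as examples chosen after their values were seen. A symbol on several rows is represented by the row with the highest mean. Of 20140 row identifiers from Ensembl, 10943 had a symbol in the identifier table, and other symbols are the table's own. No sequences are shown. The model was tested on simulated data. Alternatives were other pseudocounts, filters, scalings, variance settings and thresholds, a replicate block, summed symbols, added unannotated rows and leaving out each library. Figures used matplotlib 3.10.9 under Python 3.11.15, and tables used numpy 2.4.6 and pandas 2.3.3.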

Additional observations from a re-analysis of the deposited data

How the results depend on the processing

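The 314 calls (224 higher, 90 lower in ESC7) became 568 (412 and 156) with a pseudocount of 0.1 and 104 (72 and 32) with a pseudocount of 5. They became 197 (139 and 58) with an FPKM of at least 5 required in 3 libraries, 594 (402 and 192) with unannotated loci included and 57 (36 and 21) at a difference of at least 2. Quantile normalization gave 186 higher and 127 lower, and 274 of the 314 rows remained called. Summing rows of a symbol gave 264 calls. With robust variance moderation GAS2, FAM57B, EPHB1 and NKD1 were not called (adjusted p 0.0907, 0.06996, 0.124 and 0.0949). Leaving out each library in turn gave 319 to 345 calls, 225 to 249 higher and 86 to 96 lower, of which 286 to 299 were among the 314. The same-numbered libraries of the lines deviated together with correlations of 0.02, 0.01 and 0.07, so the numbers do not pair them. With a replicate block there were 316 calls (226 and 90), and every one of the 66 named called genes stayed called. No named gene reversed under any alternative. MAGEL2, LEFTY2, TUBB3, ANXA1, CLDN10, MEST and MX1 stayed called under all 23 alternatives. With a pseudocount of 5, 28 of the 66 were not called, among them MKRN3, PEG3, FGF2, DUSP5, SFN, ITGA3 and GABBR1. FPKM holds no read counts, so how precise the values under 1 FPKM are is unknown.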

Other observations

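Unannotated rows of the table, left out above, differed more often than annotated ones. Of 4401 unannotated rows that passed the same filter 283 were called in a fit with them included, 6.43%, with 179 higher and 104 lower in ESC7. Their median span was 1277 bp, and 60 of the 283 spanned less than 300 bp.

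IFITM1 is the symbol of several rows that were higher in ESC7. A stretch on chromosome 2 between 162076800 and 162340860 was chosen after its values were seen. In it 4 of 12 tested rows were called, all higher, against 1.81% of all rows: 3 IFITM1 rows and ATHL1. The IFITM1 row that starts the stretch, under the filter, had 0.309 FPKM in ESC7, 1.56 in ESC3 and 0 in ESC11. The IFITM1 row from 162339842 had 15.5, 62.3 and 60.8 FPKM in ESC7, was listed at 0 in ESC3 and had 59.2 ± 12.4 in ESC11 (SD, n = 3). The IFITM1 row from 162099157 had 15.3 ± 2.95, 0.321 ± 0.171 and 25.0 ± 2.21 in the same order. An IFITM1 row on chromosome 1 had 11.7 ± 1.68, 0.0774 and 3.07. ESC3 was the low line at all 3 rows. These 3 rows and ATHL1 passed the filter through ESC7 alone and had to differ.

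UNC5C had 2 rows on chromosome 8 and 1 on a scaffold, and all of them had ESC3 as the low line. UNC5C encodes a netrin receptor. The rows had 11.04 against 1.39 FPKM, 8.002 against 1.23 (written Unc5c) and 6.14 against 1.15, with ESC11 between the lines at 6.67, 4.28 and 3.85. CACNA1D, a calcium channel, had 2 called rows in which ESC3 was high, at 4.31 ± 1.19 and 3.63 ± 1.57, against 0 and 0.231 in ESC7. Both CACNA1D rows passed the filter through ESC3 alone and had to differ. These genes were chosen after their values were seen.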
